A study of Mus musculus with 2 samples.

Results

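Chromatin accessibility around 7 regulators of the smooth muscle program, Srf, Myocd, Mef2a, Mef2c, Mef2d, Fhl2 and Csrp1, was examined in the mouse urinary bladder. The genes were taken by name, 7 of 21938 protein-coding genes of the GENCODE M21 annotation on mm10. For each gene, every annotated transcript start was read apart, and the domain was the gene body with 50 kb on either side. DNase-seq, in which nuclei are cut lightly with deoxyribonuclease I and open DNA is recovered as cut fragments, had been carried out on bladder tissue of 2 female B6CASTF1/J mice aged 36 days. The strain is a first-generation hybrid of C57BL/6J and CAST/EiJ parents, and no treatment is named. Animals 5 and 6 of the labels are biological replicates 1 and 2, each a separate tissue sample with 1 library. Both belong to 1 group without a control, so values are described with the spread between the animals and no p-value was computed.

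Srf encodes serum response factor, a MADS-box protein that binds the CArG box in promoters of actin and other contractile genes. Myocardin, the product of Myocd, is its coactivator in smooth and cardiac muscle and is known for switching on the contractile program. The MEF2 proteins, encoded by Mef2a, Mef2c and Mef2d, are relatives of SRF that bind an A/T-rich site of their own and act in muscle, neurons, endothelium and lymphocytes. Fhl2 and Csrp1 encode LIM-domain proteins that work beside SRF and the actin cytoskeleton, and both are abundant in smooth muscle.

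The sequences below carry the CArG boxes and MEF2 sites of domain peaks, except the CArG box at another gene's start near Mef2d. They are shown because these letters are bound by SRF and by the MEF2 proteins. All are from GRCm38.p6, the C57BL/6J reference on which mm10 is based, and may differ from the CAST/EiJ allele. They read 5′ to 3′ on the strand of the gene, and capitals mark the match. They lie at chr17:46556221-46556480 (minus strand), chr1:43163963-43164012 (minus), chr1:135734325-135734374 (plus), chr7:67372841-67372870 (minus), chr13:83603965-83604016 (plus) and chr3:88140773-88140822 (plus).
Srf start peak: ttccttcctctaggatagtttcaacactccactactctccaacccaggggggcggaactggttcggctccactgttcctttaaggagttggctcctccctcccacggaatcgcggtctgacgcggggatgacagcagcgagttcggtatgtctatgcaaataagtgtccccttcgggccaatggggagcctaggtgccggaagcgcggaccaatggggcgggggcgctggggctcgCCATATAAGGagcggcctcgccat
Fhl2 inner start: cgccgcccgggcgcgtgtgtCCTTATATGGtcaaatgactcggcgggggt
Csrp1 intron: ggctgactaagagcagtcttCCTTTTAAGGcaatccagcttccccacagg
Mef2a start: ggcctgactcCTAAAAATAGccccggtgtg
Mef2c intron: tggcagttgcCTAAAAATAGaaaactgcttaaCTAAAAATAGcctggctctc
Mef2d upstream: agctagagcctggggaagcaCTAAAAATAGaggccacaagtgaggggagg

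The 7 genes fell into a high and a low set by the peak at their starts. Peak height is the authors' signal for each peak, and its scaling is not given in the sources used here. A start was called open when a peak touched the 250 bp on either side in both animals. The highest start peak was 10.3 in replicate 1 and 7.44 in replicate 2 at Mef2a (mean 8.88 ± 2.04, SD, n = 2, as for the means that follow). At Srf it was 10.3 and 6.18 (8.25 ± 2.93). Replicate 1 was the higher animal at each, and the values of Mef2a and Srf overlapped. At Mef2d it was 7.87 and 4.47 (6.17 ± 2.41). At Csrp1 it was 5.41 and 4.10 (4.76 ± 0.92). Replicate 1 was again the higher animal at both. The low set began with Mef2c at 1.19 and 1.30 (1.25 ± 0.08), followed by Fhl2 at 1.16 and 1.06 (1.11 ± 0.07). Myocd was lowest at 0.47 and 0.51 (0.49 ± 0.03).

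In both animals each of the 4 high genes stood above each of the 3 low genes. In the order Mef2a, Srf, Mef2d and Csrp1, each gene's range over both animals overlapped that of its neighbour. Within each animal this order held, with Mef2a and Srf equal at 10.3 in replicate 1. Mef2c lay above Fhl2 in each animal, and Myocd lay below both. Among the highest start peaks of all protein-coding genes, Mef2a stood at percentiles 88.8 and 94.2, Srf at 88.8 and 88.0 and Myocd at 36.5 and 38.4, where genes without a start peak rank lowest. The median over genes with a start peak was 4.86 in replicate 1 and 3.56 in replicate 2. In bulk tissue, a low peak in many cells and a high peak in few cells cannot be told apart.

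**Figure D1:**
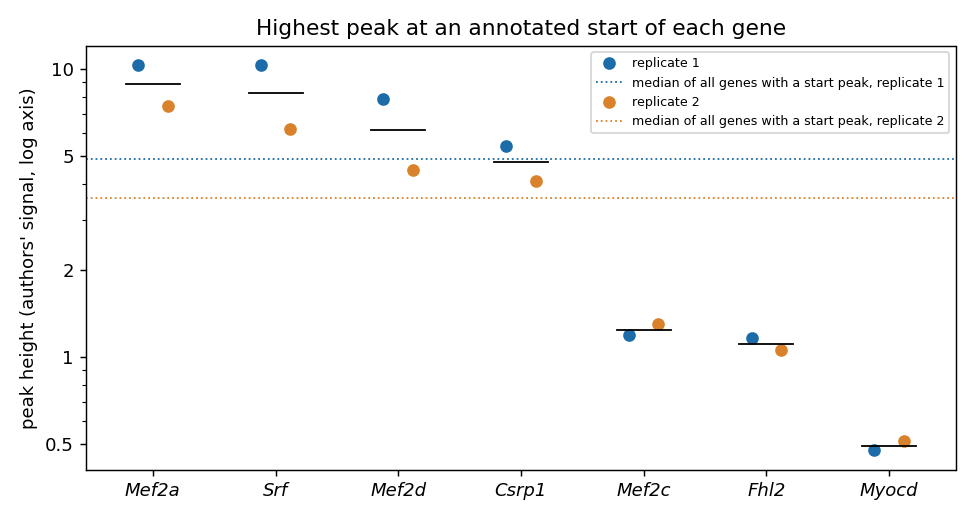
Height of the highest peak at an annotated start of each gene (log axis) in replicate 1 and replicate 2, with the mean as a black line; dotted lines are the medians over all genes with a start peak. Mef2a, Srf, Mef2d and Csrp1 lie between 4.10 and 10.3, and Mef2c, Fhl2 and Myocd between 0.47 and 1.30.

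All 7 genes had at least 1 open start, compared with 63.6% of protein-coding genes. Of their 55 annotated starts, 30 were open in both animals (54.5%), against 48.9% of the 93513 starts of protein-coding genes, a share near the background. Another 24 starts were open in neither animal. The authors' per-base false discovery rates are listed up to 0.05, and none of these 24 had a listed base within 250 bp in either animal. The rates and the peaks come from the same libraries, so this is not separate evidence that the starts were closed. The share over closed starts of other genes was not computed. The share of open starts differed with CpG content, which was examined after the heights had been seen. CpG-rich windows (at least 50% GC and an observed to expected CpG ratio of at least 0.6) were open at 91.9% of starts of all genes, and CpG-poor windows at 19.4%. Among open CpG-rich starts, the height of Mef2a stood at percentiles 78.7 and 89.0, Mef2d at 62.4 and 52.0 and Csrp1 at 42.9 and 46.3. Myocd stood at percentiles 6.00 and 9.70 among open CpG-poor starts. Its open starts at 65269854 and 65269941 lie in CpG-poor windows, and that at 65269989 in a CpG-rich one.

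Srf (ENSMUSG00000015605.6, chromosome 17, 46548329 to 46556175, minus strand) was open at 1 of 4 starts. The open start, at 46556175, is the most upstream one and belongs to a protein-coding transcript. Its peak spanned 46556241 to 46556460 in replicate 1 and 46556221 to 46556480 in replicate 2, wholly upstream of the start. The CArG box printed above lies at 46556235 to 46556244, inside the peak of replicate 2 and across the edge of the peak of replicate 1. The window is CpG-rich, and among open CpG-rich starts the height stood at percentiles 78.7 and 77.0. The 3 inner starts, of 1 coding and 2 retained-intron transcripts, had no peak within 250 bp. The lincRNA model Gm26904 spans the whole locus, so peaks there cannot be assigned to Srf alone.

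The MEF2 genes were opened at different starts. Mef2a (ENSMUSG00000030557.17, chromosome 7, 67231163 to 67372858, minus strand) was open at its 2 most upstream starts, 67372858 and 67372827, which lie under the same peak and serve 6 and 1 transcripts. Its 5 inner starts were closed. Mef2d (ENSMUSG00000001419.17, chromosome 3, 88142372 to 88172086, plus strand) was open at 4 neighbouring starts from 88142372 to 88142574 and closed at 2 inner starts. A single peak covered the first 2 of the 4 and ended 132 and 92 bp before the next, so with a window of 100 bp only the first 2 were open in both animals.

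Mef2c (ENSMUSG00000005583.16, chromosome 13, 83504034 to 83667080, plus strand) departed from its relatives. Its 3 most upstream starts, at 83504034, 83504206 and 83504240, which serve 6 transcripts, were closed in both animals, with the nearest peak 13821 and 13801 bp from the last of them. The open starts lay inside the gene. An inner group of 11 starts from 83523473 to 83524920 carried 3 peaks in each animal, with heights of 1.02, 1.01 and 1.19 in replicate 1 and 0.74, 0.99 and 1.30 in replicate 2. Further in, 2 starts at 83572348 and 83572381 had a peak of 0.73 and 0.67. The next 4 starts, at 83573607 to 83573625, had 0.39 and 0.29, and the start at 83652888 had 0.54 and 0.39. In all, 18 of 27 Mef2c starts were open, and 11 with the higher 50% of the peaks. The 9 starts from 83524535 to 83524920 lay in CpG-rich windows, yet the height of 1.19 and 1.30 stood at percentiles 8.13 and 9.90 among open CpG-rich starts. The starts are not independent, because 1 peak serves several of them.

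Mef2b, the fourth MEF2 gene, had 1.67 and 7.57 at its starts, a wider spread between the animals than at Mef2a, Mef2c or Mef2d.

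Myocd (ENSMUSG00000020542.18, chromosome 11, 65176561 to 65269989, minus strand) was open at its 3 most upstream starts, 65269854, 65269941 and 65269989, with 1 peak in replicate 1 and 2 in replicate 2. The peaks were weak. In replicate 1 the height of 0.47 lay at percentile 20.5 of all peaks, and in replicate 2 the higher of the peaks, 0.51, lay at 30.7. With the smaller of the authors' peak lists a Myocd start peak was present in replicate 2 only, so the count of open Myocd starts dropped to 0. The lowest local false discovery rate near these starts was 0.00733 in replicate 1 and 0.000318 in replicate 2, against 2.29e-78 and 8.28e-59 at the Srf start. The 3 inner starts, at 65218559, 65205467 and 65182157, were closed. The stretch before the most upstream start, chr11:65269990-65270125 (minus strand), is shown because it is the weakest start of the 7 genes. Capitals mark its single match to CCAATCA, read as its reverse complement, the core of NF-Y sites. These letters were in 1.71% and 1.90% of the peaks of the 7 domains, against 2.93% and 3.33% of all peaks. Nothing particular to Myocd was read from the match.
Myocd start peak: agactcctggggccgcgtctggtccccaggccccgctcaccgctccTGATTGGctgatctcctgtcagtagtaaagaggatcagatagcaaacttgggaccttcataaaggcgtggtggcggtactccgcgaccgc

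Of the LIM-domain genes, Fhl2 (ENSMUSG00000008136.14, chromosome 1, 43123074 to 43196984, minus strand) was closed at its 2 upstream starts, 43196984 and 43196761, and open at the inner start, 43163961. The peak there spanned 43163821 to 43164100 in replicate 1 and 43163681 to 43163920 in replicate 2. The CArG box printed above, at 43163983 to 43163992, lies just upstream of this start and inside the peak of replicate 1 only. Its bases had a lowest local false discovery rate of 8.65e-07 and 6.42e-05. The window is CpG-rich, and the height stood at percentiles 7.85 and 7.22 among open CpG-rich starts.

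Csrp1 (ENSMUSG00000026421.14, chromosome 1, 135720061 to 135752232, plus strand) also had its highest start peak at an inner start, 135729147 (5.41 and 4.10). The most upstream start, 135720061, had a peak upstream of it with heights of 2.20 and 1.85. That peak came within 250 bp of the start in replicate 2 only, and with a window of 1000 bp both Csrp1 starts were open. Mef2c, Fhl2 and Csrp1 thus had their highest start peak at an inner start, while the highest peak of Srf, Myocd, Mef2a and Mef2d lay at the most upstream starts.

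**Figure D2:**
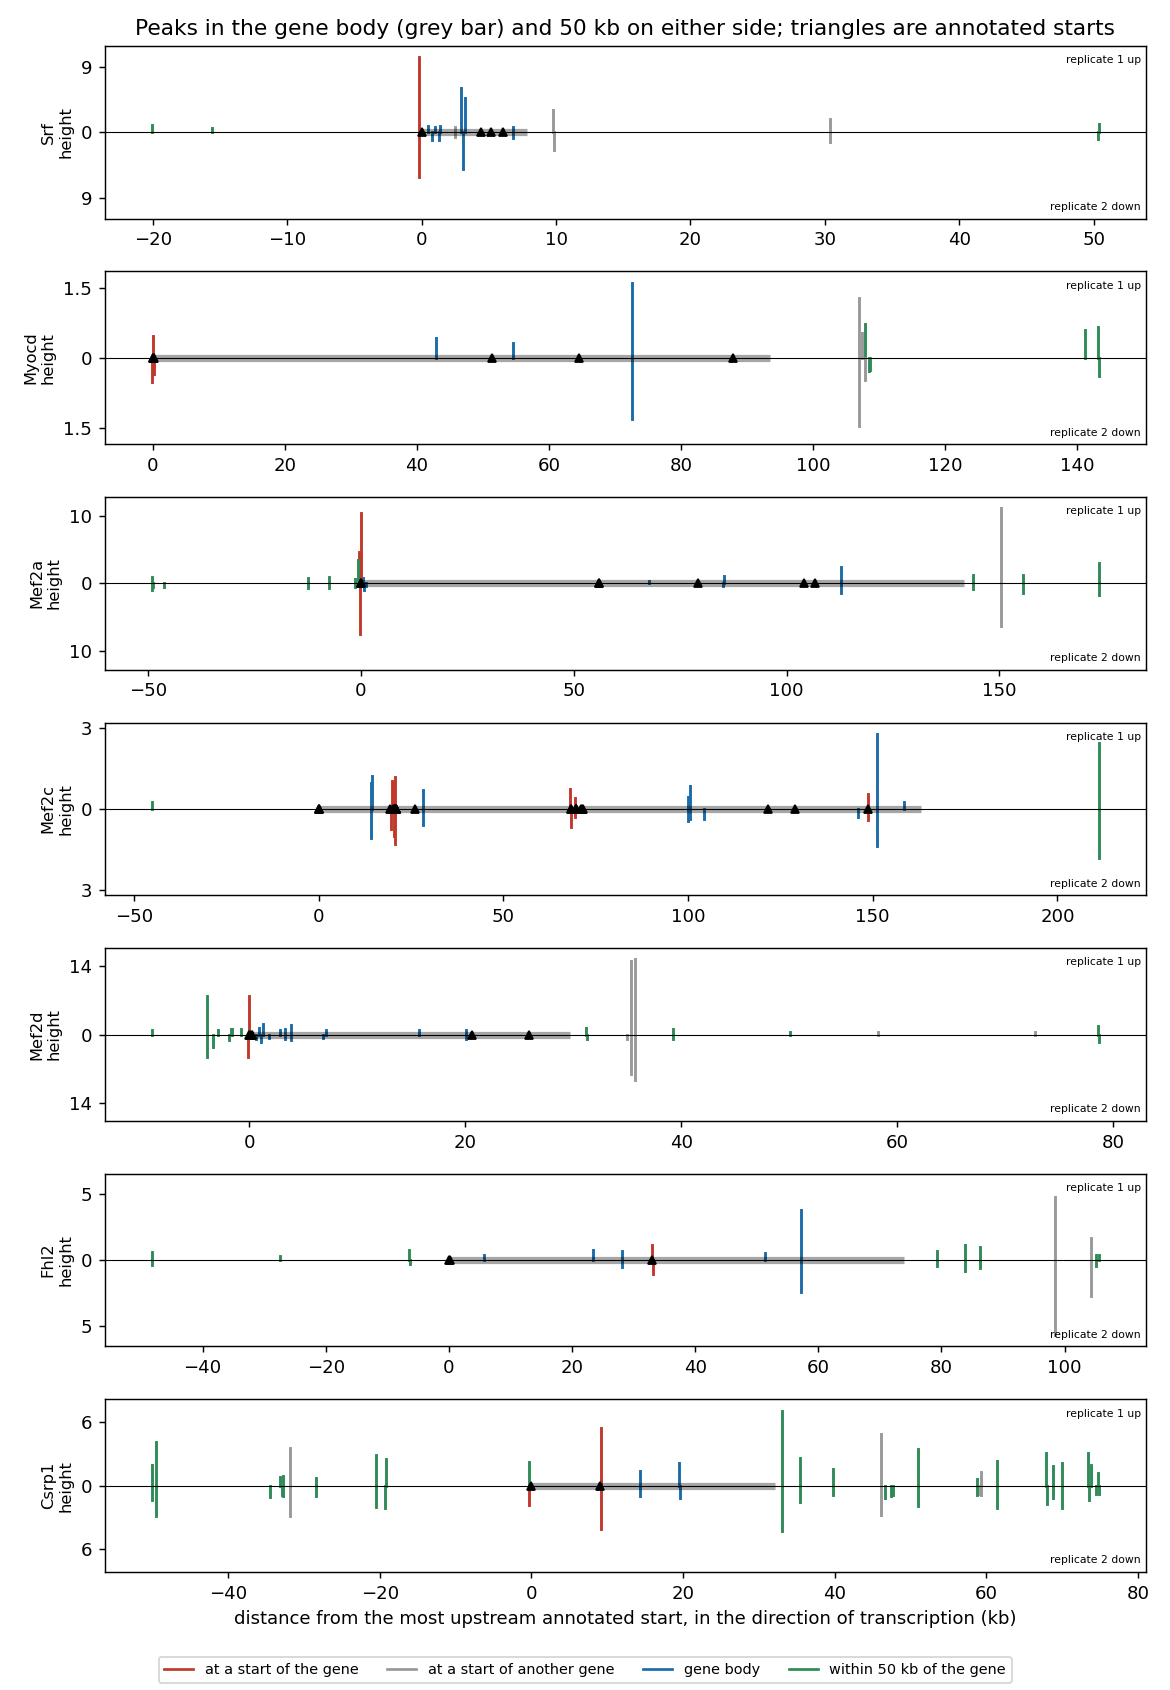
Peaks of replicate 1 (upward) and replicate 2 (downward), red at the gene's own starts, grey at starts of other genes, blue in the gene body and green outside it, by distance from the most upstream annotated start of each gene (kb, in the direction of transcription) and by height (authors' signal, scaled per gene); triangles are annotated starts and the grey bar is the gene body. Mef2c has no peak at its first starts, Myocd has its highest intronic peak far inside the gene, and the tall grey lines near Mef2a, Mef2d and Fhl2 are at starts of other genes.

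The 7 domains held 117 peaks in replicate 1 and 105 in replicate 2, which merged into 123 sites. Of these sites, 85 had a peak in both animals, 22 in replicate 1 only and 16 in replicate 2 only. Csrp1 had the densest domain, with 26 and 31 peaks or 1.97 and 2.35 per 10 kb (2.16 ± 0.27), at percentiles 94.0 and 98.4 of all protein-coding genes. Mef2d followed with 23 and 17 peaks (1.54 ± 0.33 per 10 kb, percentiles 90.8 and 84.0). Srf had 13 and 9 peaks (1.02 ± 0.26) and Fhl2 16 and 11 (0.78 ± 0.20). The median over all genes was 0.77 and 0.67 per 10 kb.

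The longest genes lay below the median density of all genes in both animals. Mef2a had 15 peaks in each animal (0.62 per 10 kb), Mef2c 15 and 14 (0.55 ± 0.03) and Myocd 9 and 8 (0.44 ± 0.04, percentiles 31.7 and 32.1). Peaks at starts of other genes are part of these counts, and some exceeded the member's own. In the Mef2d domain such peaks reached 15.2 and 9.29, and in the Fhl2 domain 4.76 and 5.67, the highest of each domain in both animals. In the Mef2a domain 1 reached 11.1 and 6.22, above the Mef2a start in replicate 1 and below it in replicate 2. Without starts of other genes the mean total over both animals was 96 peaks in place of 111. Most Csrp1 peaks lay outside the gene, with 20 and 23 in the flanks and 2 in the gene body in each animal. Mef2c was the opposite, with 13 of 15 and 13 of 14 peaks at its own starts or inside the gene.

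For each gene the highest peak away from annotated starts and found in both animals was also read, ranked by the mean of the animals. At Srf it lay in an intron and had 6.03 and 5.07 (5.55 ± 0.68). This peak stood at percentiles 94.3 and 95.6 of all peaks. The peak upstream of Mef2d, 3.91 kb from the nearest start, had 7.82 and 4.55 (6.19 ± 2.31), as high as the start peak of that gene. The peak just beyond the end of Csrp1 had 7.06 and 4.23 (5.64 ± 2.00) and exceeded its start peak in each animal. The intronic peak of Fhl2, 24.2 kb from the nearest start, had 3.74 and 2.41 (3.08 ± 0.94), above the Fhl2 start peak in each animal. The peak downstream of Mef2a had 3.07 and 1.66 (2.37 ± 0.99), and the peak downstream of Mef2c 2.42 and 1.82 (2.12 ± 0.43).

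At Myocd the highest such peak, in an intron 8.01 kb from the nearest start, had 1.61 and 1.32 (1.46 ± 0.21). That nearest start, at 65205467, was closed, and the open Myocd starts lie much further upstream. The intronic peak was higher than the Myocd start peak in both animals, and each of its 3 footprints of replicate 1 overlapped a footprint of replicate 2. For Myocd, Mef2c, Fhl2 and Csrp1, this distal peak stood above the start peak in each animal. For Mef2a and Srf it stood below, and for Mef2d the order differed between the animals.

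The sequences of these peaks are printed below because they are the highest distal sites of each gene by that mean. Letters are on the strand of the gene, and capitals mark bases inside a footprint in both animals, a short stretch protected from cutting. The Srf sequence is the part of a wider site at chr17:46553061-46553360 (minus). The others are whole sites, at chr11:65197381-65197540 (minus) for Myocd, chr7:67199501-67199700 (minus) for Mef2a, chr13:83715061-83715280 (plus) for Mef2c, chr3:88138341-88138580 (plus) for Mef2d, chr1:43139701-43139900 (minus) for Fhl2 and chr1:135753041-135753280 (plus) for Csrp1. A second Mef2c site, at chr13:83654981-83655160 in an intron (plus), is added as the highest inside that gene (2.77 and 1.35), above the downstream site in replicate 1 and below it in replicate 2.
Srf intron peak: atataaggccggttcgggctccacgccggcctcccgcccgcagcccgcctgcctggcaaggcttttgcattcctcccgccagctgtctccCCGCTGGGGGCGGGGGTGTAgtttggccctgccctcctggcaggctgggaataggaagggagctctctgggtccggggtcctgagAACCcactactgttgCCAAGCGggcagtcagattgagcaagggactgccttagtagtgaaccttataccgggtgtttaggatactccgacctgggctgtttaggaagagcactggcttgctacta
Myocd intron peak: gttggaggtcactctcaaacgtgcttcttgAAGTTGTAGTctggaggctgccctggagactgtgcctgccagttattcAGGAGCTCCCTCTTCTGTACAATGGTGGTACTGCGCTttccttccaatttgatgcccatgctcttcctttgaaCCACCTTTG
Mef2a downstream peak: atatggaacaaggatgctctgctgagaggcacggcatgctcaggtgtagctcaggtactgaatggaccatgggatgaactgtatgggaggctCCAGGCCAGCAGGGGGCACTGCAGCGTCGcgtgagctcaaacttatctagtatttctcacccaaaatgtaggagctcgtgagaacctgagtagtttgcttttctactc
Mef2c downstream peak: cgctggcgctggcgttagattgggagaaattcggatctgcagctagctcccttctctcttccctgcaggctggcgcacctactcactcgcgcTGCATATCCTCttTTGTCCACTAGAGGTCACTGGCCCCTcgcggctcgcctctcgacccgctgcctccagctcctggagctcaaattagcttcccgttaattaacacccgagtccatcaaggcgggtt
Mef2c intron peak: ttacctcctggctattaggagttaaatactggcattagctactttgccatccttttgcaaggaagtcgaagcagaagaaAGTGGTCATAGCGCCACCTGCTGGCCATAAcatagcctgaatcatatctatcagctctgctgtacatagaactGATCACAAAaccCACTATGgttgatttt
Mef2d upstream peak: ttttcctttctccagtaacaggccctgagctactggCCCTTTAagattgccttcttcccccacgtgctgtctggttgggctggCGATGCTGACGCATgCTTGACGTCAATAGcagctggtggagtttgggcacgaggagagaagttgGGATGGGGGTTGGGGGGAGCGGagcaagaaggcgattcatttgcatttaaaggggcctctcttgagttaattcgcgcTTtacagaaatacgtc
Fhl2 intron peak: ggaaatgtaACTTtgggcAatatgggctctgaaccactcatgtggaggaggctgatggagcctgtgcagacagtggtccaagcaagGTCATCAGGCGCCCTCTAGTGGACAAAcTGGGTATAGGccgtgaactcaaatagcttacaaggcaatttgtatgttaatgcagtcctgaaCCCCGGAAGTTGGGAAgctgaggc
Csrp1 downstream peak: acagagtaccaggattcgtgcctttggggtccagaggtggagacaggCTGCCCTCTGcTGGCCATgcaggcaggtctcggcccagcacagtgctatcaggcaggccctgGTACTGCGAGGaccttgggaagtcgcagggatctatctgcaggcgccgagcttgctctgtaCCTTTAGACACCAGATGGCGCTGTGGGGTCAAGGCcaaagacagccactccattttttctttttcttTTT

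Within these printed sites, the protected letters of Srf hold GGGCGGGG, a site of the SP and KLF factors. Those of the Mef2d peak hold TGACGTCA, the cyclic AMP response element. The Fhl2 peak holds CCGGAAGT, an ETS site, in 1 protected stretch and the core of a CTCF site, bound by the insulator protein, in another. Over all 7 domains, footprints of both animals held GGGCGGGG at 7 sites, the CTCF core at 6 and GGAATG, the TEAD site, at 3. They held CAGCTG, an E-box, at 4 sites, and TGANTCA (AP-1), TGACGTCA and CCGGAAGT at 1 each. None held the letters sought for GATA, forkhead, RUNX, NF-Y or NFI factors. All letters were sought on both strands, in the joined span of overlapping footprints extended by 5 bp. Counted in the footprints of each animal, the CTCF core was in 1.52% and 2.02% of those around the 7 genes against 1.34% and 1.43% of all, and GGGCGGGG in 3.05% and 2.69% against 3.02% and 3.05%. The E-box was in 2.74% and 1.68% against 2.20% and 1.87%, and GGAATG in 1.22% and 1.01% against 1.04% and 0.922%. TGANTCA was in 0.915% and 0% against 1.04% and 0.759%. The GATA letters were in 4 of 328 footprints of replicate 1 (1.22%) and in 0% of replicate 2, against 0.413% and 0.365%. The forkhead letters were in 1 and 0 footprints, against 0.0885% and 0.0827% of all, and the RUNX letters in 1 and 0, against 0.281% and 0.245%. The NF-Y letters were in 0 and 1, against 0.419% and 0.471%, and the NFI letters in 0 and 0, against 0.0378% and 0.0286%. TGACGTCA was in 1 footprint of each animal, as was CCGGAAGT, against 0.268% and 0.274% of all footprints for the former and 0.329% and 0.339% for the latter. The GATA share of replicate 1 exceeded the background, in 1 animal only and on 4 footprints. The other shares lay near the background or rested on few footprints, and nothing particular to the 7 genes was read from any of these shares.

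A looser CTCF core, with fewer fixed letters, was sought after the sequences had been seen. It lay in the joined span of overlapping footprints of both animals at 19 of the 123 merged sites of the 7 domains. Over all peaks the share was 10.6% and 11.7%, counted in the peaks of each animal and in its own shared footprints only. The member count searched wider stretches, so it cannot be set directly against that share. The 19 sites included the highest distal peak of Mef2a, Fhl2 and Csrp1 and the Mef2c intronic site, but not the highest distal peak of Srf, Myocd, Mef2c or Mef2d. The background for high distal peaks is large: 36.2% of replicate 1 peaks and 39.6% of replicate 2 peaks that lie away from starts and in the highest decile of such peaks hold it in a shared footprint. It was at 7 of the 30 sites of Csrp1 and 4 of the 16 of Fhl2.

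Perfect CArG boxes and MEF2 sites were rare in the peak sites of the domains, the only stretches searched. CArG boxes, sought with no mismatch, occurred 4 times in the 123 sites. They lay at the Srf start, at the inner Fhl2 start, in a Csrp1 intron (peak of 1.34 and 0.97) and at a start of another gene in the Mef2d domain. In replicate 1, 3 of 117 peaks held a whole CArG box against 0.831% of all peaks, and in replicate 2, 3 of 105 against 0.997%. MEF2 sites also occurred 4 times, at the Mef2a start, as a pair in 1 Mef2c intronic peak (0.46 and 0.44), and upstream of Mef2d in a site of 1.20 and 1.08, where only a replicate 1 peak reached the match. A MEF2 site was in 4 of 117 and 2 of 105 peaks, against 0.917% and 1.13% of all peaks. Each count is of a few peaks, some of which overlap, and nothing particular to the members was read from it.

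All 8 matches are 10 letters long, and the 4 MEF2 matches read the same on the strand of their genes. The Srf and Fhl2 CArG boxes are the reverse complement of each other, as the printed lines show. None of the CArG boxes lay inside a footprint of either animal. The nearest footprint was 7 and 10 bp away at Srf, 18 and 57 bp at Fhl2, and 16 and 4 bp at Csrp1. For the box in the Mef2d domain it was 9 and 18 bp away. The MEF2 site at the Mef2a start lay 4 bp outside a footprint in replicate 1. In replicate 2 it overlapped one by 5 bp and lay inside it with the 5 bp extension. In all, 0 of 328 and 0 of 297 footprints held a CArG box, against 0.0561% and 0.0698% of all footprints, and 0 of 328 and 1 of 297 a MEF2 site, against 0.0443% and 0.0436%. Absence of a footprint says nothing here about binding. Allowing 1 mismatch gave 12 CArG matches in the merged sites of the 7 domains. Of all peaks of each animal, 5.89% and 7.06% then held one. Matches in merged sites and shares of peaks are unlike measures, so the 12 was not read against these shares. Among the 12, only the match at 67372995 to 67373004, in the Mef2a start region, lay inside a footprint, with the 5 bp extension. It did so in both animals.

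Most peaks of the domains recurred in the other animal. Of replicate 1 peaks, 93 of 117 (79.5%) overlapped a peak of replicate 2, against 71.5% of all replicate 1 peaks. In the other direction 89 of 105 did (84.8%), against 80.7%. All 26 replicate 1 peaks of Csrp1 recurred, as did all 9 replicate 2 peaks of Srf and all 11 of Fhl2. Mef2d was lowest in replicate 1, with 13 of 23 peaks (56.5%), and Myocd in replicate 2, with 6 of 8. A reciprocal overlap of 50% lowered the mean of both animals' shares from 82.1% to 65.96%.

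Footprints recurred less often than peaks. The domains held 328 footprints in replicate 1 and 297 in replicate 2, with a median length of 10 and 9 bp, the same as over all footprints. Of these, 159 (48.5%) and 158 (53.2%) overlapped one of the other animal, against 44.8% and 52.2% of all footprints. Mef2a had the largest share in replicate 1, 26 of 39 (66.7%), and Fhl2 in replicate 2, 20 of 31 (64.5%). Mef2c had the smallest in both, 10 of 36 (27.8%) and 10 of 26 (38.5%). At the Mef2a start region 13 and 15 footprints were called, and at the Mef2d start 7 and 11. The Srf start had 4 and 5, all 4 of replicate 1 shared, while the Myocd start had 3 and 1 with none shared.

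**Figure D3:**
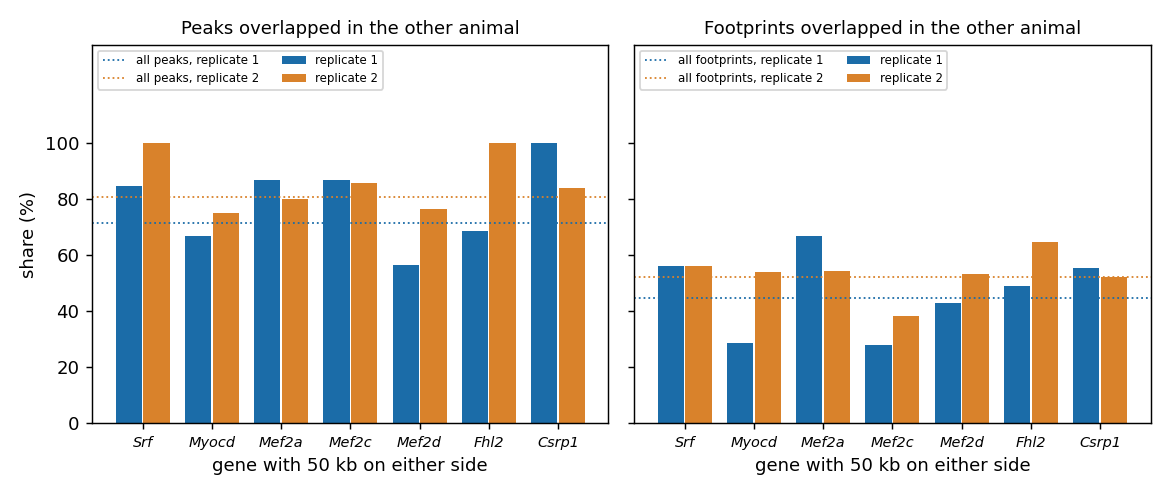
Share of peaks (left) and footprints (right) in each gene domain that overlap one of the other animal (%), for replicate 1 and replicate 2; dotted lines are the shares over all peaks or footprints of that animal. Csrp1, Srf and Fhl2 reach 100% for peaks in 1 animal each, and Mef2c has the lowest footprint share in both animals.

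Heights around the 7 genes differed between the animals as they did elsewhere. Over 80840 paired peaks, the median log2 height difference, replicate 2 less replicate 1, was -0.37 with an SD of 0.42 over pairs, and this median was subtracted. The 86 member pairs then had a median of -0.06, with 47 below 0. Medians by gene ran from 0.18 at Srf and 0.08 at Myocd to -0.11 at Mef2d and -0.15 at Csrp1, all smaller than the spread over pairs. In all, 57 of the 86 pairs lay within 1 SD, but the share over all pairs was not computed, so this count has no background. Only 2 of the 86 were more than 2-fold apart, against 2.12% of all pairs. One was an intronic Mef2a peak (1.08 and 0.37, -1.20 relative to the median) and the other a peak at a start of another gene in the Fhl2 domain (1.68 and 2.73, 1.07).

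**Figure D4:**
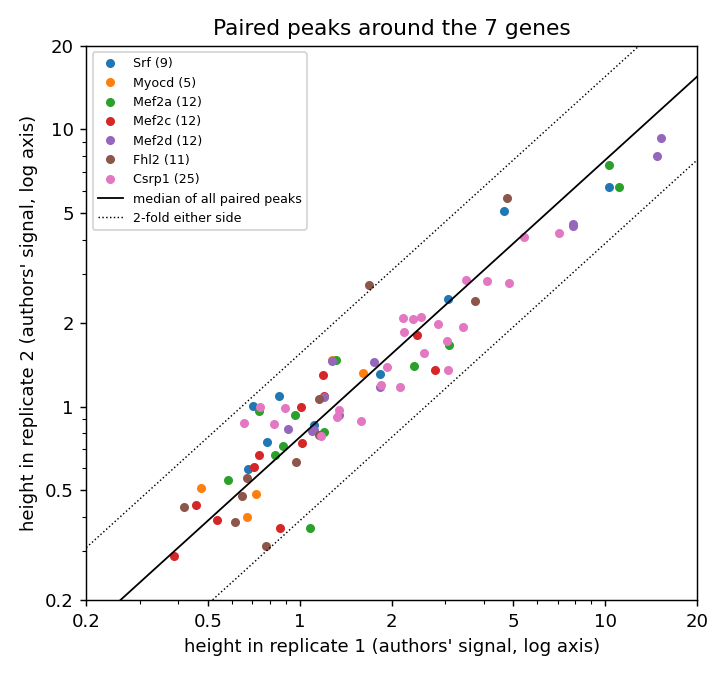
Height of each of the 86 paired peaks in replicate 1 against replicate 2 (log axes, authors' signal), coloured by gene with the number of pairs; the line is the median difference over all pairs and dotted lines are 2-fold on either side. The points follow the line, with 2 of 86 outside the dotted lines.

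Other genes of the pathway were mostly open at a start. All 5 MRTF and ternary complex cofactor genes, whose products join SRF, had an open start. They ranged from 15.3 and 8.71 at Mrtfa to 1.16 and 1.32 at Elk3. Of 9 MEF2 partners and repressors, 8 were open. The highest was Ppp3ca, a calcineurin subunit, with 20.98 and 13.03, while the histone deacetylase gene Hdac9 had a start peak in replicate 1 only (0.24). Among LIM relatives 5 of 6 were open, led by Csrp2 (6.46 and 3.91), and the striated muscle gene Csrp3 was closed. All 5 opponents of the program were open, from Klf5 (9.10 and 5.43) to Foxo4 (0.48 and 1.70). Elk1 is counted both here and among the cofactors, so these lists are not separate. The background is 63.6% of genes.

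Of 10 SRF target genes of smooth muscle, 9 were open. Their median start height was 1.17 in replicate 1 and 1.05 in replicate 2, below the medians of 1.87 and 1.52 over all genes. The focal adhesion gene Vcl had 15.95 and 8.65 and the actin gene Acta2 0.70 and 0.87, while Actg2 was closed at all its starts. The tissue was open at 7 of 8 smooth muscle markers, all of them also among the SRF targets, and 8 of 8 urothelial markers. Endothelial and fibroblast markers were open at 4 of 5 genes each. Leukocyte markers were open at 1 of 5, with Adgre1 at 0.56 and 0.46. Skeletal muscle was open at 2 of 5, Actn3 (1.80 and 1.29) and Acta1 (0.52 and 0.87). Myod1 and Myog were at 0 in both animals and Ckm at 0 in replicate 2. Heart muscle was open at 1 of 4, Tnni3 (0.70 and 0.60), with Nkx2-5, Myh6 and Nppa at 0 in both. Neuron was open at 3 of 4, Syn1 (2.34 and 1.49), Syt1 (0.32 and 0.34) and Snap25 (0.36 and 0.29). Actn3 and Syn1 stood above Acta2 in both animals, so an open start alone does not identify a cell type here. Markers of several cell types that use these regulators were thus open in the same tissue, and their part in the member peaks was not tested.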

How the data were processed

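DNase-seq libraries of 2 bladders, 1 per animal, were deposited as peak lists, footprints and per-base significance of cutting, with mm10 named in the labels. The deposited signal gives each peak's height, made by the authors separately per animal, with unknown scaling and depth. Deposited values of the p-value kind were false discovery rates, at most 0.05 for cut rates and fixed at 0.01 for footprints, which therefore cannot be ranked. Names of aligner and callers were not given in the sources used here. An effect of CAST/EiJ alleles on mapping to mm10 was not tested.

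The longer list of each animal was used (117773 and 102671 peaks), and the shorter (73247 and 61717) as an alternative. Chromosomes 1 to 19, X and Y were kept, and all peaks lie within the chromosome lengths of GRCm38.p6. Overlap meant at least 1 bp. Pairs were mutual best overlaps. Percentiles are ranks among all protein-coding genes or peaks. Motifs were matched as letters, the CArG box and MEF2 site as their usual consensus with A or T in the core. Members and gene lists were chosen with earlier results of these data known. Named peaks were, for each gene, the highest start peak, the highest peak away from starts found in both animals, and any peak with a CArG box or MEF2 site in a shared footprint, of which there were 0. Overlap, pairing and motif routines were checked on simulated lists. Python 3.11.15, numpy 2.4.6, pandas 2.3.3, pysam 0.24.0, samtools 1.23.1 and matplotlib 3.10.9 were used. The result of 1 further gene list is not reported here.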

Additional observations from a re-analysis of the deposited data

How the results depend on the processing

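Leaving out each animal in turn gave 30 to 31 open starts, 105 to 117 peaks, median start heights of 4.10 to 5.41, shared peak shares of 79.5% to 84.8% and 158 to 159 shared footprints. Across the 7 genes together, 10 values moved beyond the spread or 1.5-fold and 27 did not. A domain of the gene body and 10 kb gave 66.5 peaks and 94 shared footprints, and the gene body alone 43.5 peaks, since fewer bases are searched. A reciprocal overlap of 50% gave 65.96% shared peaks and 103 shared footprints. CArG and MEF2 matches in peaks numbered 8, and 16 with 1 mismatch allowed in the CArG box or 3 within 75 bp of the site midpoint. Matches in footprints numbered 1, and 2 with 1 mismatch, 0 near the midpoint and 0 without extension. Counted by gene, 139 values stayed within the spread or 1.5-fold and 50 did not. A height or a shared peak share with 1 animal left out could not move by this rule, because each of 2 values lies within the SD around their mean. Such values are among those that stayed and say nothing about stability. The difference between animals needs both libraries, so it was not computed without one. No paired analysis was possible because there is a single group. With 2 animals the spread is poorly known, and the sequencing depth behind a height is unknown.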
